A study of Mus musculus with 36 samples.

Results

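Germ cells and supporting cells of the XX gonad were compared at 13.5 days post coitum (dpc), the day on which fetal ovarian germ cells are entering meiosis. The comparison used the 3 arrays labelled as XX germ cells at 13.5 dpc and the 3 arrays labelled as XX supporting cells at 13.5 dpc, 6 of the 36 arrays of the series, chosen by their labels alone. The series profiled flow-sorted germ and supporting cells of both sexes at 3 stages (11.5 dpc, 12.5 dpc and 13.5 dpc) on Affymetrix Mouse Gene 1.0 ST arrays, with 3 arrays in each of 12 groups. Gonads were pooled by sex, dissociated with trypsin and stained with DAPI before sorting. Germ cells were sorted by an Oct4 reporter (strain given as progeny of C57BL/6NJ, mixed background). XX supporting cells, the ovarian lineage called pregranulosa cells, were sorted by Tg(Sry-EGFP)92Ei in progeny of CD-1. Cell type therefore coincided with reporter line and strain, and the part of each in a difference between the cell types cannot be told apart. The XX groups at 11.5 dpc carried the same reporter lines as at 13.5 dpc. XY supporting cells at 13.5 dpc, used for the comparison between sexes, came from Tg(Sox9-cre/ERT2)1Msan/J in progeny of C57BL/6, so that sex coincided with the supporting cell line.

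In the fetal ovary, germ cells lie in nests surrounded by pregranulosa cells, and each cell type depends on signals from the other. The ligand KITL on somatic cells acts on the receptor tyrosine kinase KIT on germ cells, which need it to migrate, survive and grow. BMP ligands and retinoic acid from somatic cells act on germ cells to switch on Stra8, which starts the meiotic programme, while WNT4 and RSPO1 keep supporting cells on the granulosa path.

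All 13 measured genes of the synaptonemal complex and chromosome axis were higher in germ cells. The promoters of 3 of them are shown because they are the 3 that hold both of a pair of motifs, and that of Ddx4, a germ cell RNA helicase, because it holds both too. The 250 bases before the first listed transcription start were searched on both strands for CACGTG, the E-box bound by MAX heterodimers, and GCGGGAA, a motif bound by E2F6. MAX and E2F6 belong to a repressor complex known to silence germ cell genes in somatic cells. Capitals mark each match, and the sequences, from RefSeq on build GRCm38.p6, run 5′ to 3′ on the strand of the gene. Hormad1 lies on the plus strand (chr3:95559427-95559676), as does Sycp3 (chr10:88459337-88459586). Tex12 lies on the minus strand (chr9:50561269-50561518), as does Ddx4 (chr13:112652311-112652560).
Hormad1: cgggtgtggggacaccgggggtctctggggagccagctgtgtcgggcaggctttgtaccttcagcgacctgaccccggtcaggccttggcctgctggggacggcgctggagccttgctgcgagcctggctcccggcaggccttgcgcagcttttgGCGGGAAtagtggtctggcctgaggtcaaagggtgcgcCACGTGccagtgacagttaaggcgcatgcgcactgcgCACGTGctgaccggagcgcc
Sycp3: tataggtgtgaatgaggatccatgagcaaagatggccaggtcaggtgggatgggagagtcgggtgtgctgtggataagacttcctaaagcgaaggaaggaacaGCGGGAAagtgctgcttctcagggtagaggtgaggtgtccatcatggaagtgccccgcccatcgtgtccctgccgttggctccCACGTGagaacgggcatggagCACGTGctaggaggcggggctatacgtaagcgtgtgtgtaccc
Tex12: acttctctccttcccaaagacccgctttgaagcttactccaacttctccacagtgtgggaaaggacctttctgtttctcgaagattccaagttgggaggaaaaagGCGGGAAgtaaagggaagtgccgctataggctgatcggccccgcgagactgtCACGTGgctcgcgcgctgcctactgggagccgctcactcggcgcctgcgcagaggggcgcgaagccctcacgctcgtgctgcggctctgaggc
Ddx4: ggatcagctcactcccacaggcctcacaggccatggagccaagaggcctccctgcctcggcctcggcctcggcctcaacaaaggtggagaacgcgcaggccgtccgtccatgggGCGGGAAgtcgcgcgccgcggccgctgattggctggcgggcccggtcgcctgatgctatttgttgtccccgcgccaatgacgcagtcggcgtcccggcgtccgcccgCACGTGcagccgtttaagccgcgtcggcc

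Having been chosen for holding both motifs, these promoters say nothing of how common the motifs are. Those of Hormad1 and Sycp3 held CACGTG at 2 places. Of the 19938 genes tested, 15614 had a promoter in the RefSeq table, and 7.03% of these held CACGTG, 5.33% held GCGGGAA and 0.461% held both. Among the 13 measured genes of the synaptonemal complex and chromosome axis, CACGTG was found in 6 (Sycp1, Sycp3, Tex12, Hormad1, Stag3 and 4930447C04Rik) and GCGGGAA in 4 (Sycp3, Tex12, Hormad1 and Smc1b). CACGTG was found before 5 of the 11 germ cell identity genes that had a promoter, namely Ddx4, Mael, Tdrd1, Mov10l1 and Tdrd9. Other lists that were high in germ cells, some of which share genes with these, varied. CACGTG was found before 6 of 15 piRNA pathway genes (40%), 2 of 8 meiotic initiation genes (25%) and 2 of 13 pluripotency genes (15.4%). It was found before 1 of 17 recombination genes (5.88%) and 0 of 15 mitotic genes. TGACGTCA and CAAGGTCA, letters bound by CREB and by NR5A1, were also searched and were held by 2.12% and 1.07% of all promoters, and by 0 of the 13 synaptonemal complex and axis genes. Of the 2199 promoters of genes higher in germ cells, 9.37% held CACGTG and 10.6% held GCGGGAA. Of the 1636 promoters of genes lower in germ cells, 7.82% and 5.13% did. A match is a description of the letters and not a site of binding.

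Levels are the deposited log2 values, and a difference is the germ cell mean minus the supporting cell mean, with the standard error (SE) and the p-value adjusted over all 19938 genes (padj) from a limma model of all 36 arrays. A gene is called higher or lower in germ cells where padj is under 0.05. Of all genes, 4764 (23.9%) were called, 2683 (13.5%) higher and 2081 (10.4%) lower in germ cells, and the median difference was 0.03. The 6 array medians lay between 6.62 and 6.98, correlations between arrays were 0.975 to 0.99 within a cell type and 0.883 to 0.894 between them, and the number of arrays limits the precision of every value. The 5 Y-linked genes measured, which XX cells lack, stood at 4.25 to 6.17 in these arrays, a guide to the reading of a probe set without its target. Where a group's levels lie in that range, the difference is given as measured and no fold or exact rank is drawn from it. One array of another group, XX germ cells at 12.5 dpc replicate 3, read 5.04 for Ddx4 and 11.17 for Kitl, against its germ cell label. It entered these differences only through the shared estimate of spread, and 5267 genes were called without it. In sorted cell pools, fewer cells of a type and less RNA per cell cannot be told apart.

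The cell labels were read beside their markers first. The lists were chosen with earlier results of these data known, so their counts describe the arrays and are no independent check of the labels. The germ cell list also holds Pou5f1, the gene of the sorting reporter. Of 19 measured germ cell identity genes, 17 were higher in germ cells and 0 lower, with a median difference of 3.24 (range 0.04 to 6.13). Ddx4 stood at 11.81, 12.07 and 11.96 in the germ cell arrays and at 6.75, 5.67 and 5.02 in the supporting cell arrays. Dazl, which encodes an RNA-binding protein that licenses germ cells for gametogenesis, was at 11.06, 11.36 and 11.24 in germ cells and 6.45, 5.34 and 5.70 in supporting cells. Supporting replicate 1 read highest of its group for both, and neither gene's groups overlapped, as was so for 7289 (36.6%) of all genes. Of 22 measured pregranulosa genes, 14 were lower in germ cells and 0 higher, with a median difference of -2.21. Foxl2, the transcription factor that defines the granulosa lineage, was not among them. Its levels were 6.23, 6.01 and 5.68 in germ cells and 6.57, 6.05 and 6.24 in supporting cells, groups that overlapped (difference -0.31, padj 0.394). The XX supporting cells are thus named by their reporter and by other genes of the list, such as Fst and Rspo1, and not by Foxl2.

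Genes that mark the somatic gonad before sex determination lay on the supporting side, with 6 of 11 bipotential gonad genes lower in germ cells, led by Wt1 (-3.77), Lhx9 (-3.56) and Emx2 (-3.33). The 2 higher in germ cells, Six4 (0.79) and Cbx2 (0.59), lost the call without any of 4 arrays (padj 0.0949 to 0.217) and any of 3 (padj 0.0522 to 0.22). Of 20 Sertoli genes, 5 were also lower in germ cells, among them Clu (-3.13), Mro (-2.67), Cst9 (-2.38) and Sox9 (-1.32), and Dmrt1 was higher (1.15).

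Markers of other cells passed in some lists and not in others, where 23.9% of all genes passed. A difference between the cell types cannot show other cells that both sorts held alike. Of 12 macrophage markers, 0 passed in either direction, and 0 reached an unadjusted p under 0.05 in limma. Of 14 interstitial or stromal genes, Nr2f2 was lower in germ cells (difference -1.67, padj 0.00522) and Ogn higher (0.79, padj 0.00365), the latter not without germ cell replicate 1 (padj 0.0819). Of 12 endothelial genes, Pecam1, which germ cells also express, was higher in germ cells (2.84) and Ramp2 lower (-1.97). The embryonic globin Hbb-y, of an erythroid list in which 0 of 6 genes passed, was uneven within the supporting cells, at 9.37, 6.42 and 10.26, and did not pass (padj 0.0922). Among 11 mesonephric and epithelial genes, Epcam (2.29) and Cdh1 (1.37), which germ cells also express, were higher in germ cells, and the keratins Krt8 (-2.22) and Krt18 (-1.92) lower. Of 7 steroidogenic genes Hsd3b1 passed (-0.67), not without any of 3 arrays (padj 0.0574 to 0.0717). Of 13 dissociation stress genes, immediate early genes that tissue digestion is known to induce, 11 were lower in germ cells, with a median difference of -1.98. The median of that list was 6.69 to 7.21 in the germ cell arrays and 8.85 to 9.33 in the supporting cell arrays, so that it moved with every gene that was higher in supporting cells, and its part in those differences was not tested.

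Ligand and receptor pairs were taken from 18 families, and 201 pairs had both members measured, with 140 ligands and 129 receptors among 269 genes. Of these genes 70 were called, 26% against 23.9% of all genes. The split differed from that of all genes in direction. Higher in supporting cells were 53 (19.7%, against 10.4% of all genes) and higher in germ cells 17 (6.32%, against 13.5%). On leaving out each of the 6 arrays in turn, 44 of the 53 and 11 of the 17 were called every time. Ligands and receptors leaned alike, with 24 ligands higher in supporting cells and 10 in germ cells, and 29 receptors higher in supporting cells and 7 in germ cells.

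Among the 201 pairs, both members passed in 27. In 17 pairs ligand and receptor were both higher in supporting cells and in 3 both were higher in germ cells. In the other 7 the members were higher in opposite cells, with the ligand higher in supporting cells for 2 pairs and in germ cells for 5. Pairs share genes, and whether these numbers exceed what the separate counts of ligands and receptors would give was not tested. In 99 pairs neither member passed. The opposite class was exposed to the spread between arrays. The number of pairs fell to 4 without germ cell replicate 2, and 4 of the 7 were called whichever array was left out (Kitl with Kit, Hbegf with Egfr, Mdk with Lrp1 and Penk with Oprk1). With the row sets of each array aligned (each array's values fall into interleaved sets of table positions with different medians, which the alternative brings together) it held 14.

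**Figure D1:**
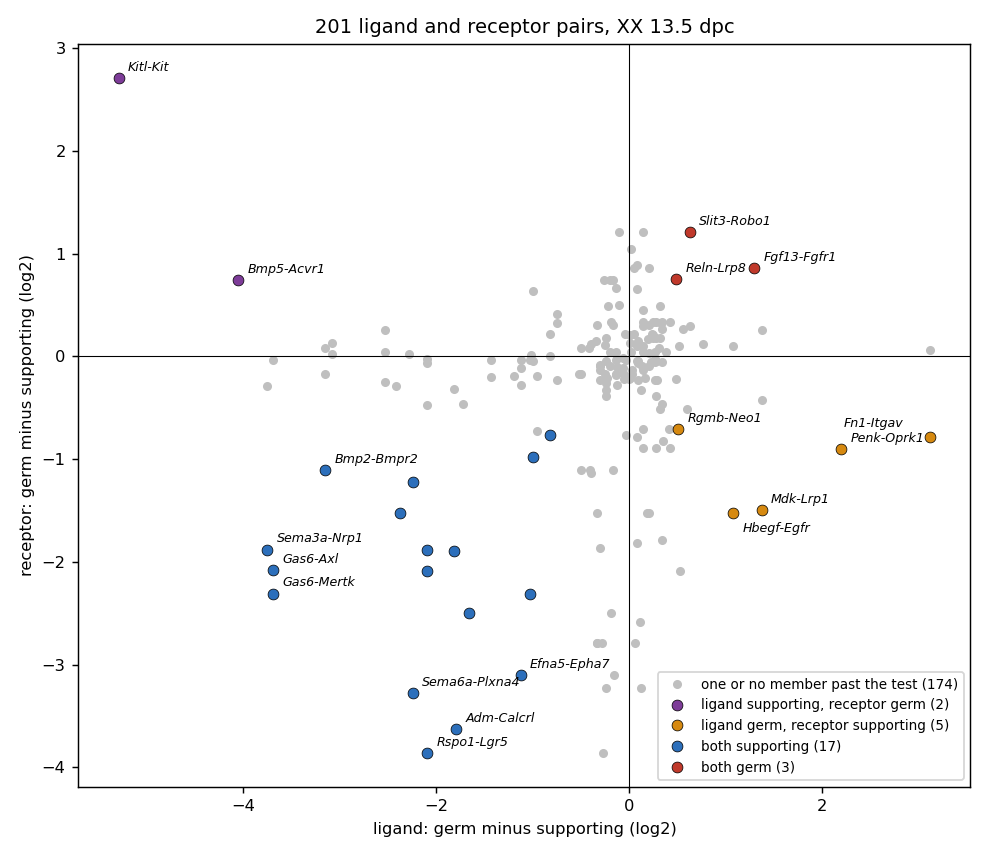
Difference of the ligand (x axis, log2) against difference of the receptor (y axis, log2), germ minus supporting cells, XX 13.5 dpc; each point is 1 of 201 pairs, coloured by which members passed. Kitl with Kit lies far to the upper left, the 17 pairs high in supporting cells fill the lower left, and the upper right holds 3 coloured pairs.

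The KIT pair showed a wide opposition. Kitl stood at 5.98, 5.80 and 5.29 in germ cells and at 10.84, 10.94 and 11.17 in supporting cells. Its difference was -5.29 (SE 0.62, padj 2.54e-08) in a gene whose germ cell levels lay within the range of the Y-linked genes. Kit was at 10.29, 10.09 and 9.91 in germ cells and 7.53, 7.56 and 7.07 in supporting cells, a difference of 2.71 (SE 0.49, padj 3.86e-05), or 6.55-fold. Neither gene's groups overlapped. The SE of both genes includes the array of 12.5 dpc that read as supporting cells.

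Of 10 BMP ligands 2 were higher in supporting cells, Bmp5 and Bmp2. Bmp5 was at 5.67, 5.77 and 5.28 in germ cells and 9.51, 9.72 and 9.63 in supporting cells (difference -4.05, SE 0.43, padj 3.13e-09). Bmp2, which induces meiotic entry in cultured germ cells, was at 6.73, 6.62 and 6.21 against 9.84, 9.39 and 9.77 (difference -3.15, SE 0.46, padj 1.71e-06). The ligands Bmp4, Bmp6 and Bmp7 did not pass (differences -0.50, -0.26 and -0.17).

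BMP receptors were spread over both cell types. The type I receptor Acvr1 was at 7.81, 8.37 and 8.0 in germ cells and 7.61, 7.27 and 7.09 in supporting cells (0.74, padj 0.0237), a call that was lost without any of 3 arrays (padj 0.0708 to 0.15). Bmpr1a, the main type I receptor for BMP2 and BMP4, was at 9.13 to 9.68 in germ cells and 9.10 to 9.55 in supporting cells and did not pass (0.08). The type II receptor Bmpr2 was higher in supporting cells (-1.11, padj 0.0137), and lost the call without either of 2 arrays (padj 0.0537 and 0.117). Of 12 BMP target genes, Gata2 (1.11), Id4 (0.93) and Msx2 (0.79) were higher in germ cells, Msx2 not without germ cell replicate 2 (padj 0.134). The general BMP targets Id1, Id2 and Id3 did not pass (-0.28, -0.48 and -0.11).

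The BMP co-receptor Rgmb and its partner Neo1, a guidance receptor, formed an opposite pair with small differences. Rgmb was at 7.96, 8.04 and 7.87 in germ cells and 7.49, 7.49 and 7.36 in supporting cells (0.51, padj 0.0384). Neo1 was at 10.92, 10.82 and 10.85 against 11.70, 11.44 and 11.58 (-0.71, padj 0.0165). The call of Rgmb was lost without any 1 of the 6 arrays (padj 0.0543 to 0.126), and that of Neo1 without either of 2 (padj 0.0508 and 0.0688).

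The other 4 opposite pairs had the ligand higher in germ cells. The matrix protein fibronectin (Fn1) was at 9.93, 9.70 and 9.48 in germ cells and 6.36, 6.97 and 6.41 in supporting cells (3.12, SE 0.25, padj 3.19e-12). Its integrin subunit Itgav was at 8.68, 8.30 and 8.37 against 9.09, 9.32 and 9.29 (-0.79, padj 0.0127), a call lost without germ cell replicate 2 (padj 0.059). Penk, the precursor of enkephalin peptides, was at 8.22, 7.71 and 7.34 against 5.89, 5.21 and 5.57 (2.20, SE 0.28, padj 1.01e-07). The opioid receptor gene Oprk1 was low in both cell types, at 5.01, 5.46 and 5.24 against 6.24, 6.02 and 6.17 (-0.90, padj 0.000271), within or just above the range of the Y-linked genes.

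The growth factor midkine (Mdk) was at 9.28, 9.77 and 9.35 in germ cells and 8.08, 7.80 and 8.38 in supporting cells (1.38, SE 0.22, padj 8.23e-06). Lrp1, an endocytic receptor that binds midkine, was at 7.59, 7.20 and 7.46 against 8.92, 8.96 and 8.88 (-1.50, padj 0.00163). Pleiotrophin (Ptn), the only other member of the midkine family, went the other way, at 7.79, 6.69 and 6.39 against 9.50, 9.55 and 9.41 (-2.53, padj 0.000435). Hbegf, a ligand of the EGF receptor, was at 8.08, 7.68 and 7.53 against 6.56, 6.67 and 6.82 (1.08, padj 0.000102). Egfr was at 6.36, 5.73 and 5.60 against 7.71, 7.45 and 7.09 (-1.52, padj 1.85e-05). A second EGF receptor ligand, epiregulin (Ereg), was higher in the supporting cells instead, at 7.30, 6.78 and 7.85 against 5.15, 4.90 and 4.73 (-2.38, padj 2.33e-05).

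**Figure D2:**
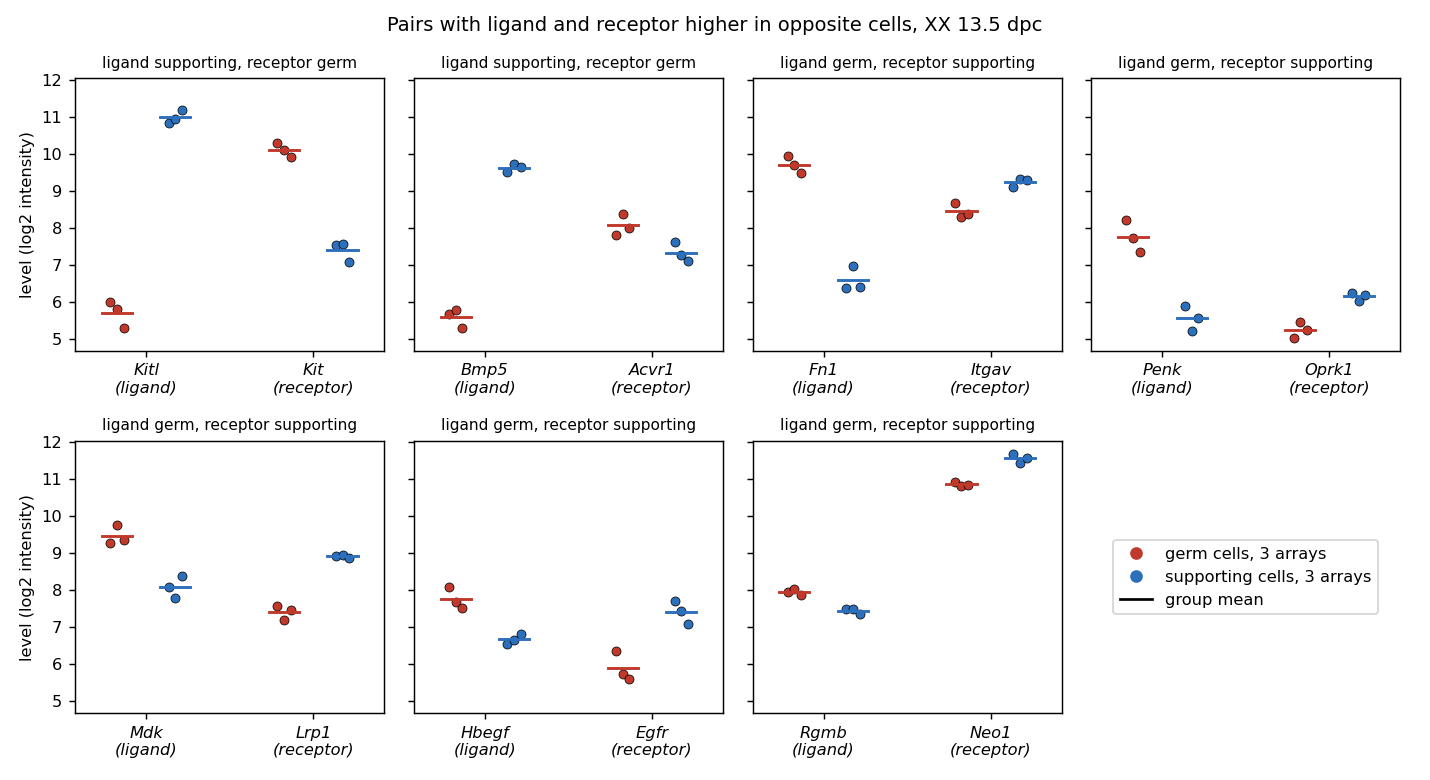
Level (log2 intensity, y axis) of ligand and receptor in each array of germ cells (red) and supporting cells (blue) for the 7 opposite pairs; points are arrays and lines are means of 3. Kitl and Bmp5 show wide gaps, and Rgmb with Neo1 the smallest differences of means. In each panel the groups do not overlap, and the arrays of germ and supporting cells lie closest for Acvr1.

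Of 22 genes of the WNT and R-spondin family, 5 were higher in supporting cells, 1 was higher in germ cells and 16 did not pass. Rspo1, which amplifies WNT signals, was at 8.16, 7.86 and 7.74 in germ cells and 10.15, 10.00 and 9.88 in supporting cells (-2.09, SE 0.30, padj 1.3e-06). Its receptors Lgr4 (-2.09, padj 1.87e-05) and Lgr5 (-3.86, padj 1.42e-10) were higher in the same cells, with Lgr5 at 9.87, 9.69 and 9.99 against 6.44, 5.81 and 5.73. Wnt4 was at 8.70, 8.12 and 8.0 in germ cells and 9.70, 9.14 and 8.98 in supporting cells (-1.0, padj 0.0119), and lost its call without any of 3 arrays (padj 0.051 to 0.1). Of the frizzled receptors, Fzd1 was higher in supporting cells (-0.98, padj 0.00485) and Fzd7 in germ cells, at 9.29, 9.11 and 9.01 against 8.12, 8.11 and 8.06 (1.04, padj 0.000214). Of 12 WNT target genes, Lgr5 and Rnf43 (-0.80) were higher in supporting cells, while Ccnd1 (1.31), Apcdd1 (0.78) and Notum (0.61) were higher in germ cells. Apcdd1 lost its call without germ cell replicate 1 (padj 0.0803) and Notum without any of 4 arrays (padj 0.0712 to 0.184). Axin2 and Lef1, the common readouts of the pathway, did not pass (-0.33 and -0.35).

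The remaining supporting-side pairs came from guidance, growth arrest and vessel signals. In the semaphorin, netrin and SLIT family 13 of 32 genes were higher in supporting cells and 2 in germ cells. Sema3a was at 9.42, 9.12 and 9.84 in supporting cells and 6.17, 5.40 and 5.58 in germ cells (-3.75, padj 1.29e-07), beside its receptor Nrp1 (-1.88, padj 0.000554). Sema6a (-2.24) was higher in supporting cells with Plxna2 (-1.22) and Plxna4 (-3.28), Sema4g (-1.66) with Plxnb2 (-2.50), and Sema7a (-1.82) with Plxnc1 (-1.89). Gas6, a ligand of the TAM receptors that mediate uptake of dying cells, was at 10.58, 10.58 and 10.36 against 7.12, 6.49 and 6.82 (-3.69, padj 2.74e-07), with Axl (-2.08) and Mertk (-2.31). Vegfa was also on this side (-2.09, padj 9.6e-07), with its co-receptor Nrp1. Adrenomedullin (Adm, -1.79) was paired there with Calcrl, at 9.47, 9.26 and 9.21 against 5.55, 5.77 and 5.74 (-3.63, padj 4.31e-09). The ephrin pairs were Efnb1 (-0.82) with Ephb4 (-0.77) and Efna5 (-1.12) with Epha7 (-3.10), Efna5 losing its call without any of 3 arrays (padj 0.0921 to 0.116).

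The 3 pairs with both members higher in germ cells had smaller differences. Robo1, a guidance receptor, was at 8.48, 8.35 and 8.20 in germ cells and 7.33, 7.38 and 6.69 in supporting cells (1.21, padj 0.000183). Its ligand Slit3 was at 7.40, 6.92 and 7.02 against 6.31, 6.56 and 6.59 (0.63, padj 0.0418) and lost the call without any of 5 arrays (padj 0.062 to 0.191). Reln (0.49, padj 0.0329) with Lrp8 (0.75, padj 0.00149) rested on a ligand call lost without any of 4 arrays (padj 0.0619 to 0.208). Fgf13 (1.30, padj 0.000261) was the third, with Fgfr1 (0.86, padj 0.00248), although FGF13 is a mostly intracellular member of its family. Fgfr2 was higher in supporting cells, at 9.89, 9.81 and 9.91 against 7.62, 6.58 and 7.05 (-2.79, padj 2.59e-10). Of 9 FGF target genes, Etv5 (2.93) and Spred2 (2.10) were higher in germ cells and 0 lower.

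Several ligands of the supporting cells met a receptor that was level between the cell types. Igf2 was at 11.40, 11.23 and 11.30 in supporting cells and 8.39, 8.34 and 7.96 in germ cells (-3.08, padj 2.29e-06), and Igf1 was also higher there (-2.28, padj 2.72e-06). Their receptors Igf1r and Igf2r did not pass (0.02 and 0.13). Amhr2, the receptor for anti-Müllerian hormone, was higher in supporting cells (-2.59, padj 2.45e-07), with Amh itself at 5.75 to 6.34 over all 6 arrays. The chemokine receptor Cxcr4, which guides migrating germ cells, was at 9.66, 9.72 and 8.83 in germ cells and 9.15, 8.26 and 8.80 in supporting cells, groups that overlapped (0.66, padj 0.135). Its ligand Cxcl12 was at 5.81 to 6.19 in all 6 arrays. In the Notch family 1 of 9 genes passed, the receptor Notch2 (-0.89, padj 0.0173), lost without any of 3 arrays (padj 0.0525 to 0.0798). Of the 6 Notch target genes Hes1 (-1.68, padj 5.24e-05) and Hey1 (-0.87, padj 0.00549) were higher in supporting cells, Hey1 not without either of 2 arrays (padj 0.0502 and 0.0948). None of the 23 cytokine genes was higher in germ cells, and Il6st, the shared signalling subunit of the interleukin 6 family, was higher in supporting cells (-1.79, padj 2.04e-06).

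Retinoic acid is a diffusible signal without a ligand gene, so the enzymes that make it were read beside its binding proteins and receptors. Aldh1a1, which makes retinoic acid, was at 10.54, 10.41 and 10.39 in supporting cells and 6.05, 6.65 and 6.00 in germ cells (-4.21, SE 0.40, padj 2.3e-10). Aldh1a2, a second such enzyme, was at 10.28, 10.04 and 9.93 against 7.21, 6.69 and 7.07 (-3.09, padj 1.21e-06), and the retinaldehyde reductase Dhrs3 was also higher there (-3.37). The binding proteins Crabp1 (3.51, padj 2.24e-11) and Crabp2 (2.51, padj 1.4e-08) were higher in germ cells, with Crabp1 at 11.36, 11.86 and 11.48 against 8.03, 8.32 and 7.82. The retinoic acid receptors Rara, Rarb and Rarg did not pass (-0.16, 0.23 and 0.29), nor did Cyp26b1, which breaks retinoic acid down (-0.14).

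The meiotic lists were high in germ cells almost throughout. All 9 measured genes of meiotic initiation and all 13 of the synaptonemal complex and chromosome axis were higher in germ cells, also when any 1 of the 6 arrays was left out, with median differences of 3.41 and 4.64. Stra8 was at 10.37, 10.04 and 10.19 in germ cells and 5.57, 5.23 and 5.11 in supporting cells (4.90, SE 0.34, padj 2.55e-13). Meioc, which stabilises the meiotic programme after Stra8, was at 9.52, 9.62 and 10.07 against 5.0, 4.45 and 4.59 (5.06, padj 6.6e-13). Hormad1, an axis protein, was at 10.40, 10.74 and 10.50 against 5.22, 4.58 and 4.24 (5.87, padj 1.79e-08). The supporting cell levels of all 3 of these genes were near or within the range of the Y-linked genes. Of 21 recombination genes 20 were higher, with Dmc1, the meiotic strand exchange protein, at 10.92, 10.55 and 11.16 against 6.43, 6.73 and 6.55 (4.31, padj 3.45e-09). The exception was Mlh3 (-0.07).

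Of 17 genes of the oocyte programme, which serves follicle formation and oocyte growth, 2 passed, both higher in germ cells, Sohlh2 (3.83, padj 3.68e-09) and Kdm1b (0.97, padj 0.000661). Figla, Nobox and Gdf9 were among those that did not pass (0.43, 0.17 and -0.40). Of 17 piRNA pathway genes 13 were higher in germ cells, led by Ddx4 (6.13), Mael (5.83) and Asz1 (5.03). Pluripotency genes were higher in 11 of 15, with Pou5f1, the gene of the sorting reporter, at 4.47 and Sox2 at 3.36, while Klf4 was lower (-1.03), not without 1 array (padj 0.0527).

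The germ cell arrays also carried more mitotic RNA. All 19 mitotic cell cycle genes were higher in germ cells, with a median difference of 3.12, and all held their call without any 1 array. Bub1, a spindle checkpoint kinase, was at 11.89 to 12.11 in the 3 germ cell arrays against 6.88, 6.66 and 5.77 (5.56, padj 4.09e-13). Mki67 was at 10.21, 10.26 and 10.05 against 6.09, 6.39 and 6.10 (3.98, padj 9.79e-14). The cell cycle inhibitor Cdkn1b was at 12.22, 11.66 and 12.17 in supporting cells and 8.02, 8.07 and 7.53 in germ cells (-4.14, padj 4.83e-07).

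Of 24 cadherin, nectin and gap junction genes, 3 were higher in germ cells, 6 were lower and 15 did not pass. The gap junction gene Gja1 was at 10.92, 10.61 and 10.61 in supporting cells and 6.48, 6.32 and 5.59 in germ cells (-4.58, padj 4.94e-09), whereas Gjc1 was higher in germ cells (1.87, padj 9.37e-07). Cdh1 (E-cadherin) was higher in germ cells, at 7.73, 7.34 and 7.19 against 6.14, 5.99 and 6.04 (1.37, padj 0.00116), and Cdh2 (N-cadherin) in supporting cells (-0.74, padj 0.00528). In the matrix list Fn1 and Nid2 (2.67, padj 3.91e-11) were higher in germ cells, and Nid1 (-2.30), Sparc (-1.74), Lamc1 (-1.0), Fras1 (-0.95) and Lamb1 (-0.93) in supporting cells. Itga6, a laminin receptor subunit, was at 11.80, 11.49 and 11.40 in supporting cells and 8.60, 8.51 and 7.90 in germ cells (-3.23, padj 6.48e-08). The secreted antagonists held Fst, which binds activin and BMP ligands, at 11.77, 11.93 and 12.16 in supporting cells and 7.22, 7.38 and 6.76 in germ cells (-4.83, padj 4.93e-10). Sfrp1, a WNT antagonist, was the gene of that list higher in germ cells (1.13, padj 0.0026).

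**Figure D3:**
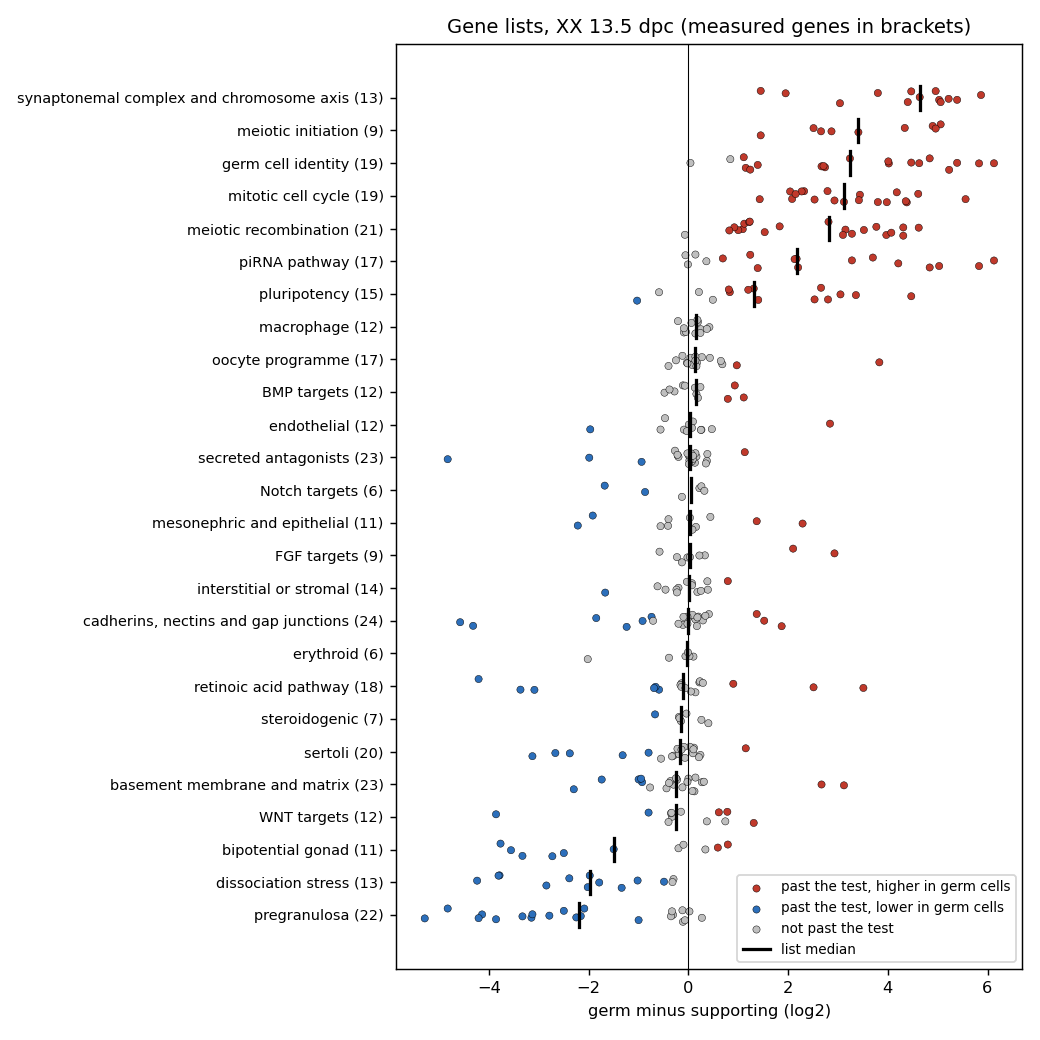
Germ minus supporting difference (x axis, log2) of each measured gene in 26 lists (y axis, ordered by median; genes measured in brackets), red and blue where a gene passed the test. The meiotic, germ cell and mitotic lists lie to the right, and the pregranulosa, dissociation stress and bipotential gonad lists lie to the left.

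The 12 largest measured differences in each direction lay between 5.22 and 6.35 in favour of germ cells and between 4.83 and 5.43 in favour of supporting cells. Toward germ cells they were Stk31, Ddx4, Hormad1, Mael, Tex13b, Cyct, Bub1, Dazl, Smc1b, Xlr, Dppa5a and Syce1, among which Hormad1, Smc1b and Syce1 act on meiotic chromosomes. Stk31, a Tudor domain kinase of germ cells, was at 11.38, 11.04 and 11.29 against 5.10, 4.98 and 4.57 (6.35, padj 1.2e-08), its supporting cell levels within the range of the Y-linked genes. Toward supporting cells they were Cpe, Akr1cl, Kitl, Wt1os, Anxa2, Mgst1, Peg10, Trps1, Lrrn1, Myl9, Gatm and Fst. Cpe, a carboxypeptidase that matures peptide hormones, was at 11.02, 10.90 and 10.67 in supporting cells and 5.64, 5.31 and 5.35 in germ cells (-5.43, padj 1.66e-11). Among these 12, Kitl and Fst encode secreted or membrane signals.

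The stage comparison asked how the difference between the cell types had changed since 11.5 dpc, when germ cells are still mitotic. Over all genes 1115 (5.59%) passed, with 439 (2.2%) shifting toward germ cells and 676 (3.39%) toward supporting cells, or 699 and 697 after quantile normalisation. The values rest on the same 6 arrays of 13.5 dpc as those above. In the XX supporting cell arrays of 11.5 dpc the medians of the row sets differed by 0.019 to 0.042, against 0.208 to 0.739 in those 6 arrays. This feature of the values thus coincided with stage in supporting cells, and its part in the changes was not tested. Among the 269 ligands and receptors 10 shifted toward germ cells and 17 toward supporting cells. Of the meiotic lists, 6 of 9 initiation genes, 5 of 13 axis genes and 11 of 21 recombination genes shifted toward germ cells and 0 the other way. Of the 11, Mei1 lost the call without any of 6 arrays (padj 0.0544 to 0.136), Spo11 without either of 2 (padj 0.0637 and 0.074) and Msh5 without 1 (padj 0.0992). Without XX germ cells 13.5 dpc replicate 3 the count over all genes was 668, and without the 12.5 dpc array that stands apart it was 1761.

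Of the 6 genes with the largest shift toward germ cells, Stra8, Meioc and Sycp2 are meiotic. Stra8 was at 5.21, 4.91 and 5.34 in germ cells at 11.5 dpc, at 8.05 and 6.87 in the first and second arrays of 12.5 dpc, and above 10 at 13.5 dpc. Its difference grew by 4.83 (padj 2.17e-08). Meioc grew by 4.71 (padj 1.4e-07), and the first and second arrays of 12.5 dpc read 8.05 and 5.56. Sycp2 grew by 3.83 (padj 9.33e-06), from 5.55, 5.87 and 5.49 in germ cells at 11.5 dpc. Taf7l, a transcription factor subunit of germ cells, moved in both cell types. It stood at 6.04, 6.01 and 6.92 in germ cells at 11.5 dpc and at 11.08, 10.19 and 11.29 at 13.5 dpc. It stood at 9.97, 10.02 and 10.04 in supporting cells at 11.5 dpc against 8.44, 8.19 and 7.97 at 13.5 dpc. Its change was 6.35 (padj 1.6e-11).

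Ligands and receptors that shifted did so on either side. Tdgf1, the NODAL co-receptor, was at 10.70, 10.40 and 9.74 in germ cells at 11.5 dpc and at 6.47, 6.30 and 6.01 at 13.5 dpc, while supporting cells stayed between 5.66 and 6.26 (change -3.73, padj 6.77e-06). Robo1 was at 9.75, 9.77 and 9.73 in supporting cells at 11.5 dpc, above the 7.82, 7.71 and 7.27 of germ cells, so that the order of the cell types was opposite at 13.5 dpc (change 3.36, padj 2.44e-08). Mdk did the same, with 9.93, 9.79 and 10.15 in supporting cells and 8.95, 8.74 and 8.93 in germ cells at 11.5 dpc (change 2.46, padj 2.43e-06). The order also turned for Ptn, at 7.70, 7.97 and 7.13 in germ cells and 6.42, 7.17 and 7.48 in supporting cells at 11.5 dpc, although those groups overlapped (change -3.11, padj 0.0102).

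Other genes had moved mainly in their supporting cell values. Calcrl read 6.24, 5.99 and 6.00 in supporting cells at 11.5 dpc and above 9 at 13.5 dpc (change -3.04, padj 0.000405). Bmp5 read 7.62, 7.94 and 7.96 in them at 11.5 dpc (change -2.34, padj 0.015), a call lost without germ cells 13.5 dpc replicate 3 (padj 0.0551). At that stage Lgr5 read 7.84, 7.76 and 7.97 (change -2.04, padj 0.0102) and Egfr 6.06, 6.01 and 6.09 (change -1.51, padj 0.0087). All 4 genes were thus lower in supporting cells at 11.5 dpc than at 13.5 dpc in every array. Ereg was the reverse, at 9.95, 9.95 and 9.96 in supporting cells at 11.5 dpc (change 2.60, padj 0.00409), and so was Il15, at 8.02, 7.49 and 7.51 against 4.45, 4.09 and 4.38 at 13.5 dpc (change 3.16, padj 1.96e-05). The changes of Kitl and Kit between the stages did not pass (-0.11, padj 0.969, and -0.86, padj 0.655). The retinoic acid enzymes Aldh1a1 (-2.61) and Aldh1a2 (-2.36, padj 0.0187) shifted toward supporting cells, with Aldh1a1 at 7.44, 7.48 and 7.55 in supporting cells at 11.5 dpc. Aldh1a2 lost that call without either of 2 arrays (padj 0.0522 and 0.0559).

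**Figure D4:**
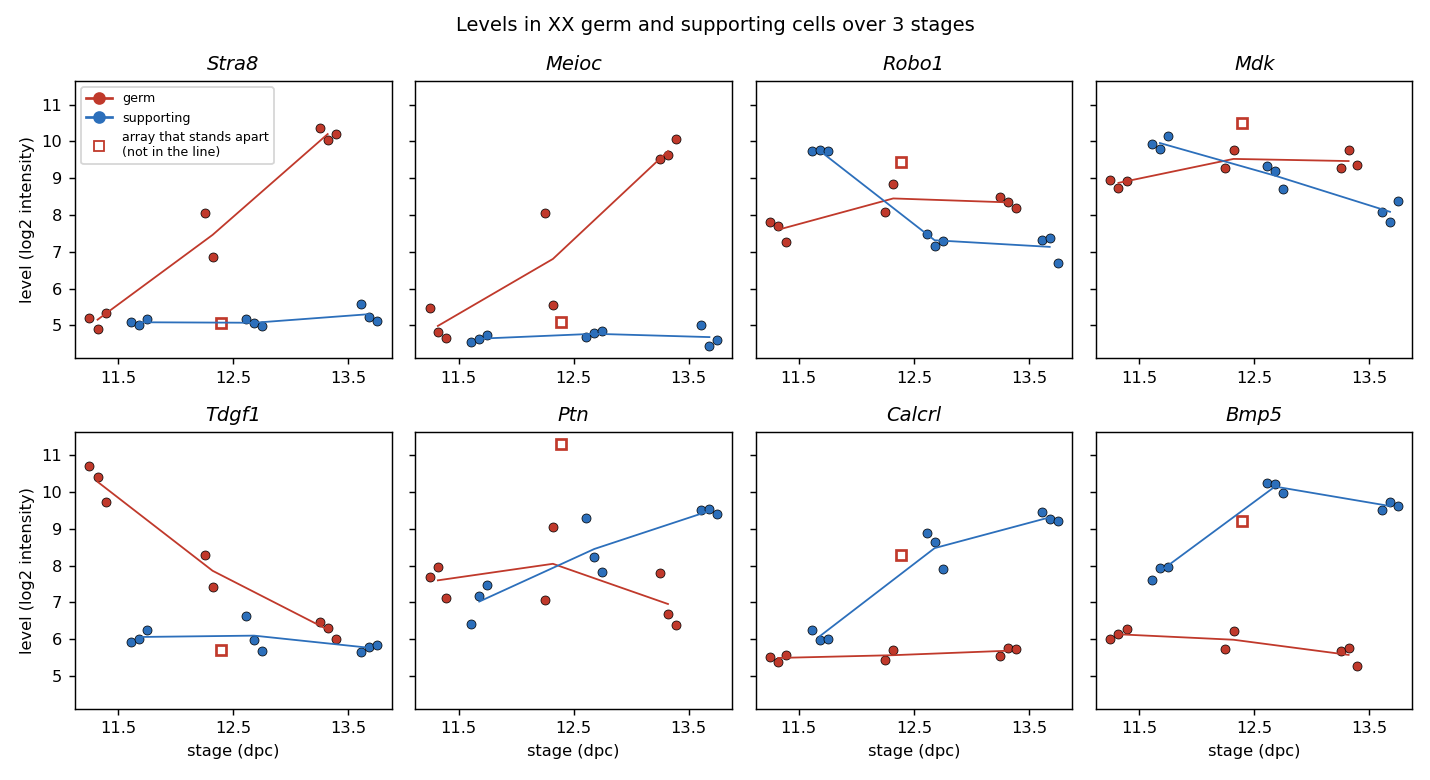
Level (log2 intensity, y axis) of 8 genes in XX germ cells (red) and supporting cells (blue) by stage (x axis, dpc); points are arrays, lines join means, and open squares mark the germ cell array of 12.5 dpc that stands apart, left out of the line. Stra8 and Meioc climb in germ cells, Tdgf1 declines there, Calcrl and Bmp5 are higher in supporting cells at 13.5 dpc than at 11.5 dpc, and the lines of Robo1, Mdk and Ptn cross.

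The comparison between sexes asked where the difference between the cell types in XX gonads departed from that in XY gonads of the same day. Over all genes 1630 (8.18%) passed, 947 (4.75%) with a more positive value in XX and 683 (3.43%) with a more negative one. Of the ligands and receptors 27 and 22 did. Because the XY supporting cells came from another line and strain, sex and line cannot be told apart in these values for genes that moved in supporting cells. Of 20 genes of Sertoli cells, the XY supporting lineage, 18 were more positive in XX, of which 6 lost the call on leaving out 1 array. These were Clu (1.15, padj 0.0461, any of 9 arrays), Sox10 (any of 9, padj 0.0587 to 0.131), Aard (any of 8), Cldn11 (any of 6), Cyp26b1 (either of 2) and Mro (1 array). Hsd17b3, a testosterone synthesis enzyme, was at 11.52, 11.55 and 11.84 there and at 4.80 to 6.55 in the other 3 groups of 13.5 dpc (5.02, padj 9.99e-15).

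All 19 mitotic genes were more positive in XX, a call that Aurkb lost without any of 5 arrays (padj 0.0513 to 0.0974) and Kif20a without 1 (padj 0.0714). Bub1 was at 9.46, 9.45 and 9.23 in XY supporting cells against 5.77 to 6.88 in XX supporting cells, with germ cells at 11.41 or higher in both sexes (3.35, padj 5.91e-05). Cdkn1b was at 9.24, 9.52 and 9.57 in XY supporting cells against 11.66 to 12.22 in XX (-3.98, padj 0.000717). Of the meiotic lists, 3 of 9 initiation genes, 2 of 13 axis genes and 8 of 21 recombination genes were more positive in XX and 0 more negative. Among them, Iho1 lost the call without any of 7 arrays (padj 0.055 to 0.0736) and Psmc3ip without any of 5 (padj 0.051 to 0.104). Ugt8a lost it without either of 2 (padj 0.0725 and 0.0735). Stra8 was at 5.11, 5.75 and 5.81 in XY germ cells, near its level in supporting cells (4.41, padj 3.15e-08), and Meioc at 4.95, 5.09 and 5.52 (4.40, padj 1.19e-07). Sycp2 did not pass (-0.03, padj 0.994), with 9.43, 9.60 and 9.91 in XY germ cells.

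The KIT pair did not pass between the sexes (Kitl -1.20, padj 0.543, and Kit -0.05, padj 0.992). Bmp2, Bmp5 and Fst did. Bmp2 was at 6.07, 5.82 and 6.2 in XY supporting cells (-3.21, padj 0.000793), Bmp5 at 6.00, 5.95 and 6.07 (-3.87, padj 2.23e-05) and Fst at 6.53, 6.63 and 6.78 (-5.17, padj 6.62e-07). Mdk was reversed, at 9.47, 9.56 and 9.40 in XY supporting cells and 7.77, 7.93 and 8.10 in XY germ cells (2.92, padj 1.92e-08). Fgfr2 was reversed in the other direction, at 6.64, 6.49 and 6.72 in XY supporting cells and 7.99, 9.02 and 8.52 in XY germ cells (-4.68, padj 3.41e-11).

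**Figure D5:**
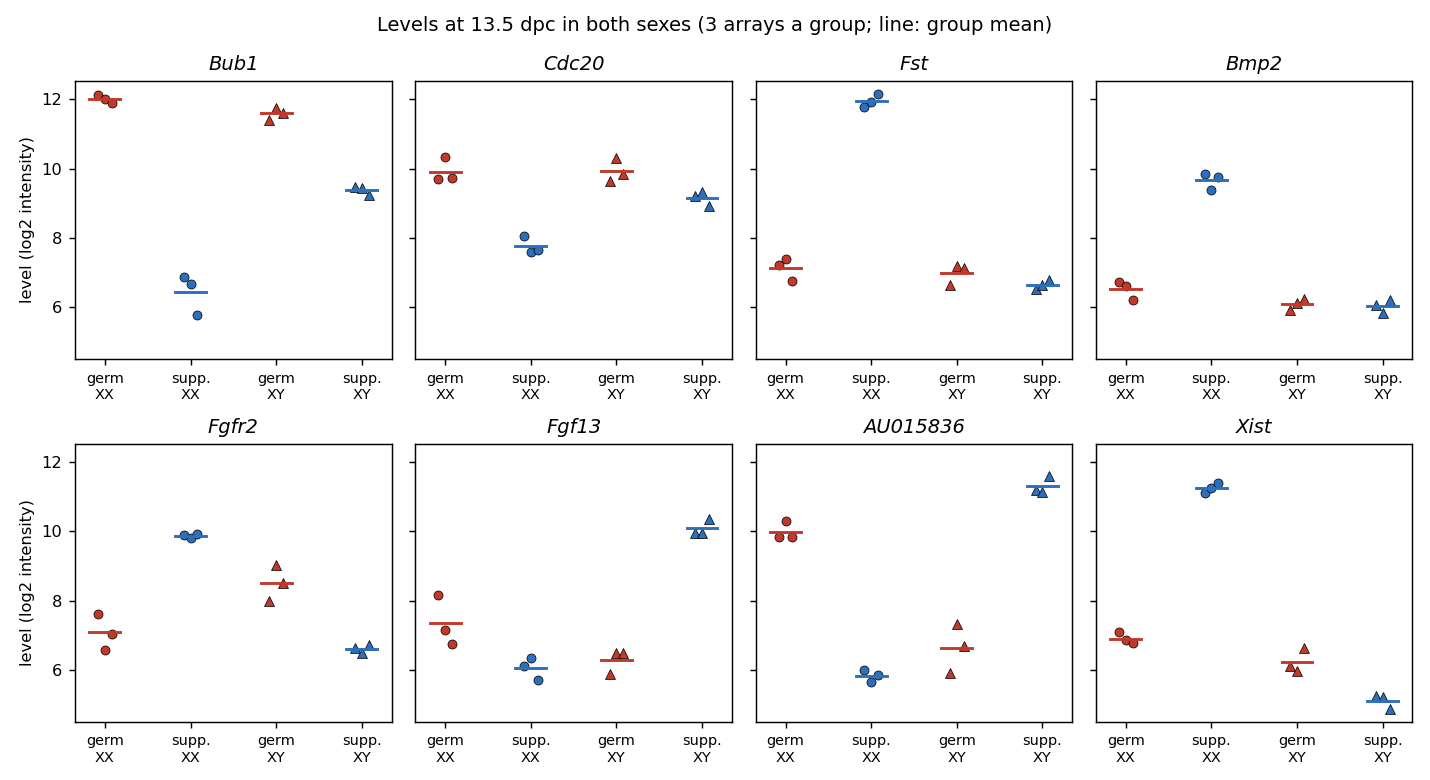
Level (log2 intensity, y axis) of 8 genes at 13.5 dpc in germ and supporting cells of XX (circles) and XY (triangles) gonads; points are arrays and lines are means of 3. Bub1 and Cdc20 are lowest in XX supporting cells, Fst, Bmp2 and Xist are highest there, and Fgfr2, Fgf13 and AU015836 reverse their order between the sexes.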

How the data were processed

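The log2 intensity values of 36 arrays were deposited by the authors as a single table of 35557 probe sets (3.17 to 15.05, array medians 6.54 to 7.01). RMA is named per the submitters' processing notes, with no version given in the sources used here. Probe sets were named through GEO's platform annotation. Of these, 21789 had 1 gene symbol, 1621 had several and 12147 were unnamed, and 21698 matched the RefSeq table by identifier. The brightest probe set stood for each of 19938 genes (999 had several).

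A limma model (version 3.58.1, R 4.3.3) of 12 group means over 36 arrays, with 24 residual degrees of freedom, gave each difference, its standard error and a two-sided p, adjusted by Benjamini-Hochberg over all 19938 genes and called under 0.05. The change since 11.5 dpc and the difference between sexes were interaction contrasts of that model. Nothing in the labels says whether replicates came from separate litters, and p-values therefore reflect the scatter among these arrays alone, which may be technical. In data simulated for the comparison of germ with supporting cells at XX 13.5 dpc over 19938 genes, 60% of changes of 1 and 98% of changes of 2 on the log2 scale were recovered, with 5 false calls. For the change since 11.5 dpc and the difference between sexes, 19% of changes of 1 were recovered in each, and 92% and 93% of changes of 2, so that a change near 1 that did not pass says little. The simulation changed 100 genes by each amount, against 4764 genes called at XX 13.5 dpc, so its rates need not hold for the data.

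The values of each array fell into interleaved sets of table positions, each on its own linear scale (107 sets in all). Their medians differed by 0.208 to 0.739 in the 6 arrays, for reasons not given in the sources used here, and an alternative aligned them. The other alternatives were the samples in the fit, leaving out arrays, the replicate number as a block, centring, quantile normalisation, dim genes, array weights, the mean of probe sets and a minimum difference. Same-numbered germ and supporting arrays had correlated deviations of 0.193, 0.125 and -0.041, so the numbers were not taken as pairs.

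Genes were named by rule. These were the 12 largest called differences each way without overlap of the groups, the opposite pairs, the members of 6 signalling families, other pair genes that passed, up to 5 of each list that passed with those against its direction, and the 6 largest of each interaction each way with pair or list genes that passed. Genes named with values that did not pass, outside those families, were picked from the lists for their known roles. The members and lists were chosen with earlier results of these data known. Of 392 list genes 365 were measured.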

Additional observations from a re-analysis of the deposited data

Results flagged for a closer look

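The difference between germ and supporting cells in XX gonads changed most between 11.5 and 13.5 dpc, by the interaction test in limma, for 6 genes in each direction. Toward germ cells these were Taf7l (6.35), Pnliprp2 (4.95), Stra8 (4.83), Meioc (4.71), Sycp2 (3.83) and 2210407C18Rik (3.82). Stra8, Meioc and Sycp2 were higher in germ cells at 13.5 dpc than at 11.5 dpc in every array. Pnliprp2, a lipase gene, was instead at 11.97 to 12.23 in supporting cells at 11.5 dpc and at 6.74, 6.47 and 6.56 at 13.5 dpc, while germ cells read 7.31, 6.95 and 6.80 and then 6.79, 6.47 and 6.22. 2210407C18Rik was likewise at 8.06, 8.4 and 8.47 and then 4.64, 4.70 and 5.01 in supporting cells. Toward supporting cells the genes were Ldb2 (-3.92), Tdgf1 (-3.73), Gstm6 (-3.62), Mir18 (-3.57), Gtsf1l (-3.31) and Pld5 (-3.25). Ldb2, a LIM domain binding cofactor, was at 7.37, 7.55 and 7.18 and then 11.02, 10.31 and 10.74 in supporting cells. Gtsf1l, a germ cell zinc finger gene, was at 9.78, 9.51 and 9.45 and then 6.50, 6.10 and 5.77 in germ cells.

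The difference between the cell types at 13.5 dpc departed most between XX and XY, by the interaction test in limma, for another 6 genes in each direction. More positive in XX were AU015836 (8.82), Fgf13 (5.10), Hsd17b3 (5.02), Mybl1 (4.69), Dsp (4.67) and Fam111a (4.64). AU015836 was at 9.82, 10.31 and 9.82 in XX germ cells and 6.00, 5.65 and 5.84 in XX supporting cells, against 5.91, 7.33 and 6.69 in XY germ cells and 11.19, 11.14 and 11.59 in XY supporting cells. More negative in XX were Mgst2 (-5.64), Xist (-5.46), Fst (-5.17), Fgfr2 (-4.68), Gng13 (-4.63) and Bnc2 (-4.51). Mgst2, a glutathione transferase gene, was at 10.05, 10.74 and 10.46 in XY germ cells. Sex and supporting cell line cannot be told apart in these values.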

How the results depend on the processing

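The difference between germ and supporting cells at XX 13.5 dpc was called for 4764 genes, and for 7164 with row sets aligned, 7455 with array weights, 2622 with a minimum difference of 1 and 7546 with row sets aligned and without XX germ cells 12.5 dpc replicate 3, an alternative chosen after seeing the data. In the same order, the opposite pairs numbered 7, 14, 14, 3 and 18, and 8 without that array alone. The change since 11.5 dpc was called for 1115 genes, for 1986 in only the arrays compared, 1761 without the 12.5 dpc array, 2555 with row sets aligned, 3517 with array weights and 3489 with row sets aligned and without that array. The difference between sexes was called for 1630 genes, for 3793 with row sets aligned, 6506 with array weights (1631 more positive in XX and 4875 more negative, against 947 and 683) and 4683 with row sets aligned and without that array. The cause of these shifts was not tested. Leaving out 1 array of the groups compared gave 4050 to 4394 genes, 4 to 7 pairs, 668 to 1342 genes by stage and 1322 to 1825 by sex. Without germ cell replicate 1 the split at XX 13.5 dpc was 2092 higher and 2302 lower, and under quantile normalisation 2635 and 2656, against 2683 and 2081. With the replicate number as a block the counts were 4771, 7, 1096 and 1612. Of 4348 alternative values of 256 called genes at XX 13.5 dpc (list and pair genes and those with the largest differences), 140 lost the call and 0 reversed. Counted by gene, 58 of the 256 lost the call in at least 1 alternative, 34 of them on leaving out 1 array. By stage 131 of 1977 values lost the call, and by sex 188 of 3356, again with 0 reversed. Counted by gene, these were 25 of 86 by stage and 32 of 146 by sex. Several alternatives, such as the fit of only the arrays compared, leave the difference itself unchanged and so could not reverse it. The all-gene median difference moved from 0.03 to between -0.003 and 0.023 under the other scalings. Signal over background limits dim genes such as Oprk1.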

Other observations

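The X chromosome was looked at after the values were seen. Of 739 X-linked genes tested, 137 (18.5%) were higher in germ cells and 101 (13.7%) lower, against 2537 (13.3%) and 1979 (10.4%) of 19106 autosomal genes. Among the X-linked genes with the widest differences were Tex13b (5.70) and Xlr (5.33), both higher in germ cells. Xist, whose RNA covers the silenced X, stood at 7.08, 6.85 and 6.77 in XX germ cells and 11.09, 11.25 and 11.38 in XX supporting cells (-4.34). In XY cells it was at 6.12, 5.97 and 6.62 in germ cells and 5.26, 5.22 and 4.87 in supporting cells.

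A further set of genes, also singled out after their values were seen, were higher in opposite cell types in the 2 sexes at 13.5 dpc, by more than 1 on the log2 scale and without overlap of the arrays in either sex. Only genes that passed the limma interaction test between the sexes (padj under 0.05) were kept, so the set was picked in part by that test. Of the 19938 genes tested, 18 were high in the XX germ cells and the XY supporting cells. These included Fgf13 (1.30 in XX and -3.80 in XY), Dsp (1.05 and -3.62), Cited1 (1.20 and -2.80), Robo1 (1.21 and -1.88) and Mdk (1.38 and -1.54). In 17 the XX supporting cells and the XY germ cells were high, among them Fgfr2 (-2.79 and 1.89), Gng13 (-2.25 and 2.38) and Bag3 (-2.06 and 1.49). On the X chromosome lay 3 of the 18 and 1 of the 17, as did 739 of all 19938 genes. Robo1, Mdk, Fgf13 and Fgfr2 were the members of the ligand and receptor pairs described above among them.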
